A study of Mus musculus with 13 samples.

Results

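The comparison set 4 mice with bile duct ligation (BDL) that received anti-miR-873-5p (anti-miR-873-5p BDL) against 5 non-treated mice without BDL (no BDL), which makes 9 of the 13 livers of the series. Its members were the 9 columns that carry these group names in the table deposited for this comparison, and all genes in that table that passed a filter on low counts were described. All mice were C57 males of 3 months. The anti-miR-873-5p mice received, by tail vein, 60 µg of a hairpin inhibitor of the microRNA in a lipid carrier on days 3 and 5 after BDL, and livers were taken on day 7. The remaining 4 mice had BDL and the control oligonucleotide (miR-Ctrl BDL). The no BDL mice are labelled non treated, so what the ligation, the carrier and the inhibitor each added to the differences below cannot be told apart in these 9 mice.

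BDL blocks the outflow of bile, so that bile acids back up into the liver. Hepatocytes then take up and make less bile acid, bile ducts proliferate in what is called the ductular reaction, and fibroblast-like cells around the portal tracts and in the sinusoids lay down collagen. The microRNA miR-873-5p binds messenger RNAs through its seed, bases 2 to 8 of the mature strand. The study examined it as a regulator of Gnmt, glycine N-methyltransferase, the hepatocyte enzyme that uses S-adenosylmethionine to methylate glycine.

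The mature strand is shown because the injected inhibitor was directed at it. In RefSeq's GRCm38.p6 annotation, mmu-miR-873a-5p lies on the minus strand at chr4:36668556-36668576, and the capitals mark the seed.
mmu-miR-873a-5p: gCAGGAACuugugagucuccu

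Matches to the seed were counted in the 3′ untranslated regions (UTRs) of GENCODE M21 transcripts, of which 12463 tested genes had one. A match was present in 2190 of these genes, of which 271 (12.4%) rose with BDL and the inhibitor and 170 (7.76%) fell, against 13.8% and 8.63% of the 10273 genes without one. The median log2 fold change was 0.02 with a match and -0.01 without one, and the median length of the longest UTR was 2276 and 980 bases. A match followed by A, the longer form of the site, was held by 564 genes, of which 66 (11.7%) were higher and 40 (7.09%) lower. Genes with the site were thus called about as often as genes without it. The 136 bases annotated as the UTR of Gnmt held 0 matches to the 7 bases of the seed, and this says only that these letters are not in that annotated stretch. In mouse hepatocytes, the study reported, a mimic of the microRNA lowered a reporter carrying the Gnmt UTR and also Gnmt mRNA and protein.

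The sites of 3 called genes, Mlxipl and the gene with the largest fall and the gene with the largest rise among those with the longer site, are shown with the match in capitals. Mlxipl encodes the carbohydrate response factor ChREBP, Sult2a8 a liver sulfotransferase and Fxyd6 a regulator of the sodium pump, and Sult2a8 and Fxyd6 were chosen after their values were seen. The windows lie at chr5:135137675-135137702 on the plus strand, chr7:14411476-14411503 on the minus strand and chr9:45395337-45395364 on the plus strand of GRCm38.
Mlxipl: gggtaccatccttaGTTCCTGagcagag
Sult2a8: gaaggaaagaagtaGTTCCTGaaattat
Fxyd6: ctggagtctgctctGTTCCTGaggagcc

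Sult2a8 had 537, 801, 564, 546 and 351 CPM (normalized read counts, scaled to a common library size) in the no BDL mice and 44.2, 2.27, 2.08 and 1.82 in the 4 ligated ones. It fell by 5.47 ± 1.11 on the log2 scale (SE, adjusted p = 0.00947), and mouse 1 kept far more of it than the other ligated mice. Fxyd6 had 0.215, 0.242, 0.215, 0.276 and 0 CPM without BDL and 1.34, 2.08, 4.69 and 5.66 CPM with BDL and anti-miR-873-5p, and was 4.16 ± 0.60 higher. All its controls were under the filter on low counts, so its direction was fixed. The opposite directions of Sult2a8 and Fxyd6 follow from how they were chosen and say nothing about the site.

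Each liver had from 12857186 to 19385430 counted reads. CPM here and below are scaled by TMM, edgeR's trimmed mean of M-values, so that most genes have equal levels in all mice. Values in a group are given in the order of the mouse numbers, which only name the mice. A gene was called, and is said to have risen or fallen, where edgeR's quasi-likelihood test gave a Benjamini-Hochberg adjusted p under 0.05, and an error after ± is the SE of a log2 fold change. A gene under the filter on low counts in every control was tested only because of the ligated mice, which fixed its direction. Its fold change is a description and its call is no test. Among named genes this holds for at least Fxyd6, Cldn4, Gpc3, H19, Timp1, Mmp7, Sult1e1 and Gpnmb. The liver's own markers were high in all mice, with Alb, serum albumin, between 26262 and 74474 CPM and Ttr, transthyretin, between 1148 and 6477 CPM.

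The make-up of the libraries differed between the groups. Major urinary proteins (MUPs), small carriers of pheromones that male mouse liver secretes in bulk, took 13.8% to 30.5% of all reads in the no BDL mice and 0.148% to 2.90% in those with BDL and the inhibitor. TMM scaling factors were 0.681 to 0.957 in no BDL and 1.23 to 1.56 in anti-miR-873-5p BDL. Scaled by library size alone, the median of all genes moved to 0.82 on the log2 scale, and 10063 genes were higher and 131 lower (98.7% of calls higher), and with library sizes counted without the 20 most abundant genes it moved to 0.34, with 4410 higher and 335 lower (92.9%). Relative to those medians, all 155 called genes of a set of 195 examined genes and the medians of all 44 gene lists kept their direction. A change of scaling moves all genes by about the same amount, so this was largely fixed in advance and is no separate check. Most genes of the examined set are named here and some are not, and ceruloplasmin is named below but is not in that set. Without that shift, library size alone turned 20 of the 155 genes and 14 list medians from lower to higher, among them the respiratory chain, bile acid synthesis, plasma protein, urea cycle and pericentral lists, so changes below are relative to the average gene.

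**Figure D1:**
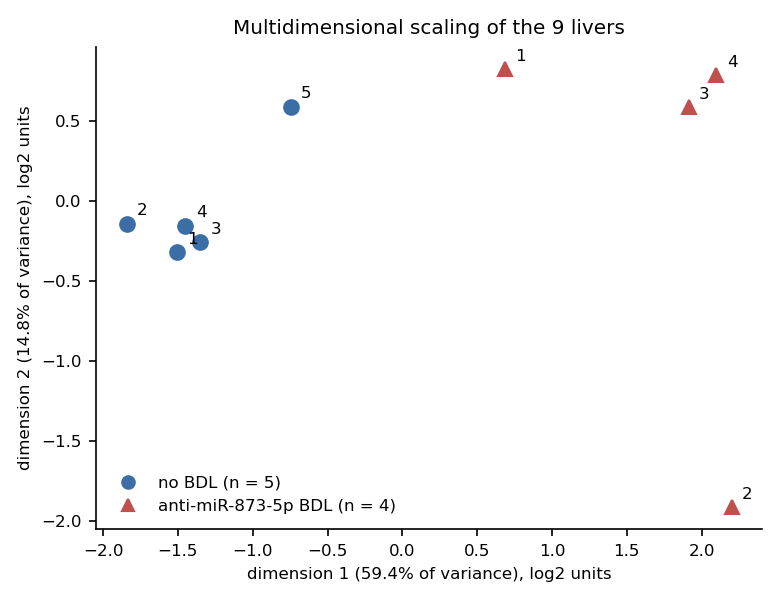
Multidimensional scaling of the 9 livers on the 500 genes that differed most between each pair of mice, with distance in log2 units on both axes, circles for no BDL and triangles for anti-miR-873-5p BDL, each numbered by mouse. Dimension 1, with 59.4% of the variance, separates the groups, and anti-miR-873-5p BDL mouse 2 lies apart from the other ligated mice on dimension 2, with 14.8%.

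The groups lay apart on the main axis of the data, at -1.84 to -0.75 without BDL and 0.69 to 2.20 with it, but the mice within each group were uneven. Anti-miR-873-5p BDL mouse 2 stood at -1.92 on the second axis and the other 8 mice between -0.32 and 0.83. It is also the mouse of its group that the authors left out of a further table of the ligated mice. Anti-miR-873-5p BDL mouse 1 was the ligated mouse nearest to no BDL, and no BDL mouse 5 was the control nearest to the ligated mice. Of the 1108 genes that fell, mouse 1 was the least changed of the ligated mice in 63.8%, and of the 1715 that rose, mouse 2 in 47.3% and mouse 1 in 43.0%.

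Of 13130 genes tested, 2823 (21.5%) differed between anti-miR-873-5p BDL and no BDL. Of all genes, 1715 (13.1%) rose and 1108 (8.44%) fell, with a median of -0.01 on the log2 scale. In 1328 genes (10.1%) every ligated mouse lay above every control, and in 1080 (8.23%) every ligated mouse lay below. With anti-miR-873-5p BDL mouse 2 and no BDL mouse 5 left out, a choice made after seeing the data, 4819 of 13446 genes were called, 2748 higher and 2071 lower, and they included 1640 of the 1715 and 1037 of the 1108. Leaving out 1 mouse gave 4317 calls without anti-miR-873-5p BDL mouse 2, but 1261 and 1392 without mice 3 and 4 of that group, and 1713 to 1824 without no BDL mouse 1, 2, 3 or 4. Of the 155 called genes of the examined set, 55 lost their call in at least 1 of the 9 fits that left out a mouse. Among them 39 were called in 4 or fewer of these fits, including genes with large changes such as S100a9, S100a8 and Marco. Also among the 39 were Otc, Acaa2, Hsd3b7, Hsd17b4, Mthfd1, Setd7, Sdsl, Hand2, F10, Il1rn, Orm3, Tyms, Casp8 and Amy2a5. These shares over all genes stand as the background for the gene lists, which give counts of called members and no test of their own. List counts without the 2 mice stand against the 2748 higher and 2071 lower of 13446 genes in that fit, where calls were more frequent throughout.

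**Figure D2:**
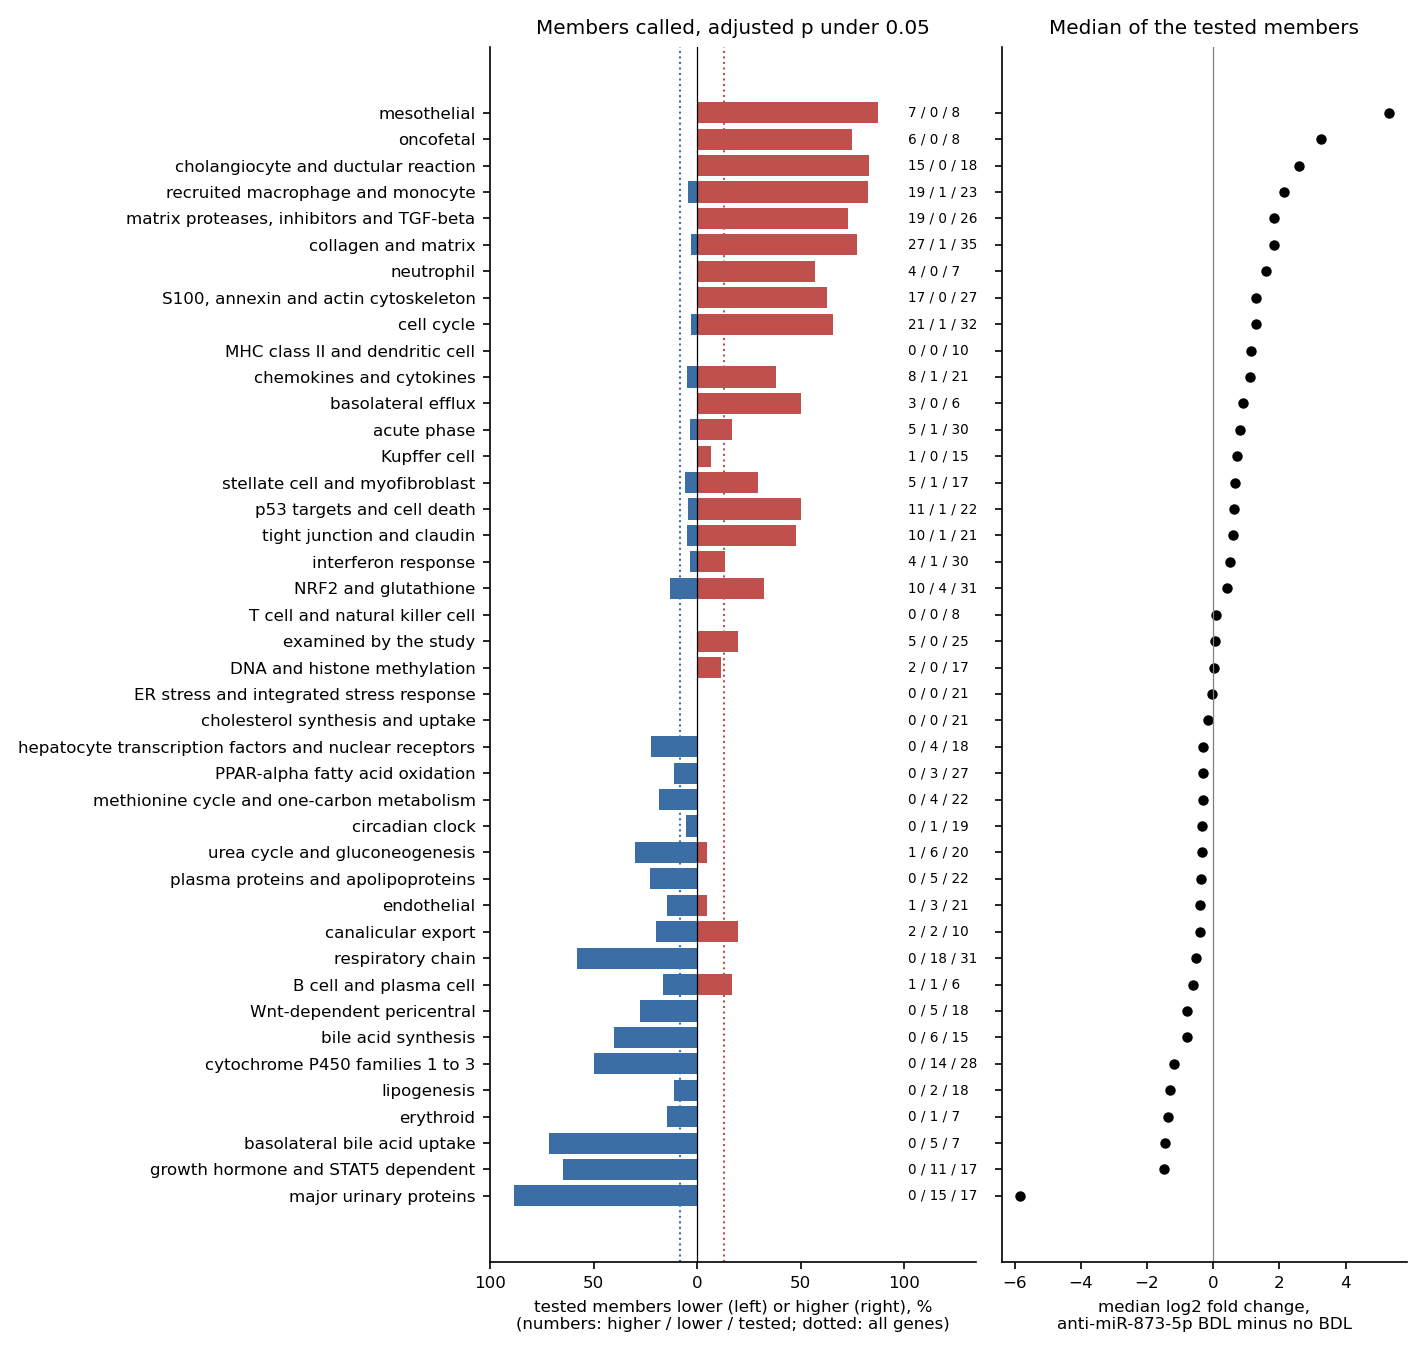
Gene lists with 5 or more tested members, ordered by the median log2 fold change of the ligated mice over no BDL. Left, the percent of tested members that rose (red, right of 0) or fell (blue, left of 0), with the numbers higher, lower and tested, and dotted lines at the 13.1% and 8.44% of all genes. Right, the median log2 fold change, from 5.30 for mesothelial genes to -5.83 for major urinary proteins.

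Of the 10 largest falls among called genes whose groups did not overlap, 8 were MUPs. The pulsed growth hormone of males keeps these genes, and others of the liver, high through the factor STAT5. All 15 called MUPs of 17 tested fell, with a list median of -5.83 on the log2 scale. Mup1 had 54839, 63942, 19557, 47823 and 43342 CPM without BDL and 2283, 145, 464 and 327 CPM with BDL and anti-miR-873-5p, and fell by 5.83 ± 0.95 (adjusted p = 0.00391). Mouse 1 kept the most Mup1 of the ligated mice and no BDL mouse 3 had the least of the controls, yet the groups did not overlap. Mup7, the MUP with the largest fall, dropped by 6.26 ± 1.04. MUPs share much of their sequence (61.6% of the 50-base windows of Mup1 and 86.7% of those of Mup7 occur in another gene), so reads may have been split between them and single MUPs are uncertain. The same limit applies to other genes named below. Their shared windows were 53.5% for Amy2a5, 52.3% for Onecut1, 50.7% for Hsd3b7, 48.9% for Cyp4a12a, 41.1% for S100a11 and 31.5% for Saa1.

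In a list of 17 tested genes that depend on growth hormone and STAT5, 11 fell and 0 rose, with a median of -1.49. Hsd3b5, a steroid dehydrogenase of male liver on chromosome 3 (RefSeq, GRCm38.p6 98618636 to 98645534), had the largest of these falls. It had 175, 431, 178, 256 and 166 CPM without BDL and 2.41, 0.0631, 0.156 and 0.38 CPM with BDL and anti-miR-873-5p, a fall by 8.31 ± 0.90 (adjusted p = 0.000881). The serpin pseudogene Serpina4-ps1 followed, at 337, 124, 105, 244 and 224 CPM against 2.41, 0.568, 1.15 and 1.99 CPM (a log2 change of -7.06 ± 0.56). Elovl3, a fatty acid elongase, fell by 4.82 ± 1.07, Slco1a1, an uptake carrier of organic anions, by 4.74 ± 0.55, and the fatty acid hydroxylase Cyp4a12a by 3.65 ± 0.69. Igfals, which holds IGF1 in the blood, fell by 1.29 ± 0.19, whereas Igf1 itself had a log2 change of -0.42 ± 0.26 (adjusted p = 0.274) with mouse 2 above all controls.

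Drug-metabolizing and pericentral genes were lower as well. Among cytochrome P450 genes of families 1 to 3, which oxidize drugs and steroids, 14 of 28 fell and 0 rose, with a median of -1.18. Cyp2c29 had 1076, 1003, 999, 854 and 846 CPM without BDL and 165, 11.7, 49.4 and 15.6 CPM with BDL and anti-miR-873-5p, so the least changed ligated mouse was still far below the lowest control. It fell by 3.98 ± 0.76 (adjusted p = 0.00735). Cyp3a11, a P450 that bile acids can induce through nuclear receptors, had 1062, 199, 1052 and 487 CPM in the ligated mice against 1134, 731, 948, 813 and 772 in the controls, overlapping ranges with a log2 change of -0.33 ± 0.42 (adjusted p = 0.616).

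Of 18 genes that Wnt signals from the central vein maintain, 5 fell and 0 rose. Glul, glutamine synthetase, had 945, 929.7, 785, 945 and 769 CPM without BDL and 566, 56.4, 159.6 and 176 CPM with BDL and anti-miR-873-5p, and fell by 1.87 ± 0.54 (adjusted p = 0.035), a call that was lost in 6 of the 9 fits that left out a mouse. The glutamate transporter Slc1a2 fell by 2.22 ± 0.32, the ornithine aminotransferase Oat by 1.62 ± 0.28 and Cyp2e1, the ethanol-oxidizing P450, by 2.01 ± 0.29. Axin2, a feedback target of the Wnt pathway, had a log2 change of -0.53 ± 0.26 (adjusted p = 0.177).

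Enzymes that make bile acids and carriers that take them up from the blood were lower in part. Of 15 enzymes of bile acid synthesis 6 fell and 0 rose, and of 7 carriers that take up bile acids and organic anions from the blood 5 fell. Cyp7b1, oxysterol 7-alpha-hydroxylase of the alternative pathway, fell by 2.65 ± 0.53, the bile acid CoA ligase Slc27a5 by 1.26 ± 0.26 and the sterol 27-hydroxylase Cyp27a1 by 1.19 ± 0.23. Scp2, Hsd3b7 and Hsd17b4 of the same list fell by 1.05, 0.79 and 0.57.

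Levels of Cyp7a1 and Cyp8b1 were scattered among the ligated mice. Cyp7a1, the rate-limiting enzyme of the classical pathway, had 49.3, 48.4, 55.3, 73.4 and 55.2 CPM without BDL and 179.5, 0.505, 55.5 and 174 CPM with BDL and anti-miR-873-5p. Mice 1 and 4 were above all controls, mouse 3 was within their range and mouse 2 was almost without it, and the log2 change was 0.86 ± 0.90 (adjusted p = 0.529). Without mouse 2 and no BDL mouse 5 it was 1.26 ± 0.36 (adjusted p = 0.026). With 1 mouse left out in turn, it was called once in 9 times, without mouse 2. Cyp8b1, the sterol 12-alpha-hydroxylase that makes cholic acid, had 354, 221, 222, 236 and 227 CPM against 136, 1.26, 37.7 and 7.05 CPM, so that all ligated mice were below all controls and differed widely among themselves. Its log2 change was -2.47 ± 0.99 (adjusted p = 0.0998).

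Slc10a1, the sodium-dependent taurocholate carrier NTCP, had 643, 541, 794, 754 and 357 CPM without BDL and 176, 281, 125.9 and 108 CPM with BDL and anti-miR-873-5p, and fell by 1.84 ± 0.34 (adjusted p = 0.00607). The organic anion carrier Slco1b2 fell by 1.47 ± 0.36 and Slco2b1 by 0.82 ± 0.16. On the canalicular side 2 of 10 exporters rose and 2 fell. The phospholipid floppase Abcb4 rose by 0.72 ± 0.23, called in 1 of the 9 fits that left out a mouse, and the drug pump Abcb1a by 1.13 ± 0.25. The transporter Abcg2 fell by 0.76 ± 0.24 and the cation exporter Slc47a1 by 0.79 ± 0.24, called in 1 and 2 of these fits. Abcb1a was called in all 9. Abcb11, the bile salt export pump, had a log2 change of -0.72 ± 0.32 (adjusted p = 0.133).

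Export back to the blood was represented by 6 tested genes, of which 3 rose and 0 fell. Slc51b, the beta subunit of the bile acid exporter OST, had 0, 0.0806, 0.358, 0.897 and 0.401 CPM without BDL and 3.37, 5.68, 5.10 and 2.28 CPM with BDL and anti-miR-873-5p, with no overlap, and rose by 3.50 ± 0.61 (adjusted p = 0.00526). The multidrug resistance pumps Abcc1 and Abcc5 rose by 1.84 ± 0.38 and 1.30 ± 0.25, and Abcc3 and Abcc4 had log2 changes of 0.48 ± 0.24 and 0.43 ± 0.28 (adjusted p = 0.17 and 0.304). The bile acid receptor Nr1h4 (FXR) and its target Nr0b2 (SHP) did not pass the test, at -0.46 ± 0.19 and -0.33 ± 0.44. Of 18 hepatocyte transcription factors and nuclear receptors 4 fell and 0 rose, namely Onecut1 by 1.78, Cebpa by 0.76, Thrb by 0.63 and Foxa2 by 0.56. Leaving out 1 mouse in turn, Thrb was called in 8 of 9 fits, Onecut1 in 6 and Cebpa and Foxa2 in 2 each.

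The methionine cycle, in which Gnmt acts, had a list median of -0.30. Gnmt (chromosome 17, 46725664 to 46729211) had 1531, 1330.2, 1412, 1140.3 and 957 CPM without BDL and 802, 1224, 486 and 259.7 CPM with BDL and anti-miR-873-5p. Mouse 2 lay within the range of the controls, and mice 1, 3 and 4 lay below it. The log2 change was -0.88 ± 0.39 (adjusted p = 0.135), and -1.40 ± 0.35 (adjusted p = 0.015) without mouse 2 and no BDL mouse 5. Mature miR-873-5p is too short to be counted in these libraries of messenger RNA.

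Mat1a, which makes S-adenosylmethionine, had 2333, 1978, 2680.4, 2163 and 1734 CPM without BDL and 1343, 10594, 1651 and 1703 CPM with BDL and anti-miR-873-5p, and Ahcy, which clears S-adenosylhomocysteine, had 1623, 1574, 2122, 1513 and 1118 CPM against 639, 3026, 663 and 586 CPM. In both genes mouse 2 was far above every other mouse and the other 3 ligated mice were below all controls. Their log2 changes over all mice were 0.81 ± 0.59 and -0.37 ± 0.50 (adjusted p = 0.358 and 0.633), and without mouse 2 and no BDL mouse 5 they were -0.56 ± 0.20 (adjusted p = 0.053) and -1.45 ± 0.19 (adjusted p = 0.0013). Of the windows of Ahcy, 68.7% occur in another gene. Of 22 genes of the list 4 fell and 0 rose, namely the serine hydroxymethyltransferase Shmt1 by 1.18 ± 0.25, the sarcosine dehydrogenase Sardh by 0.95 ± 0.21, the sarcosine oxidase Pipox by 0.90 and the folate enzyme Mthfd1 by 0.66.

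Among 17 genes for DNA and histone methylation 2 rose, near the 13.1% of all genes that rose, and 0 fell. Uhrf1, which recruits the maintenance methyltransferase at replication, had 0.501, 0.403, 0.43, 0.897 and 0.936 CPM without BDL and 10.9, 0.505, 7.08 and 14.7 CPM with BDL and anti-miR-873-5p, and rose by 3.69 ± 0.73 (adjusted p = 0.00852) with mouse 2 at the level of the controls. The lysine methyltransferase Setd7 rose by 0.73 ± 0.20, called in 3 of the 9 fits that left out a mouse. Dnmt1, Dnmt3a, Dnmt3b and Ezh2, the DNA methyltransferases and the enzyme that methylates histone H3 lysine 27, had log2 changes of 0.66, 0.03, -0.25 and 0.55 (adjusted p = 0.0667, 0.897, 0.631 and 0.135).

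Genes of the mitochondria were lower by small amounts. Of 31 nuclear genes for the respiratory chain 18 fell and 0 rose, each by less than 1 on the log2 scale, with a median of -0.51. The succinate dehydrogenase subunits Sdhb and Sdha fell by 0.86 ± 0.20 and 0.80 ± 0.19. Without mouse 2 and no BDL mouse 5 all 31 fell, with a median of -0.70.

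Of 27 PPAR-alpha and fatty acid oxidation genes 3 fell with all mice, near the 8.44% of all genes that fell. Without mouse 2 and no BDL mouse 5, 17 fell. The fatty acid binding protein Fabp1 had 4837, 3281, 3944, 4438 and 1978 CPM without BDL and 1449, 348, 302 and 327 CPM with BDL and anti-miR-873-5p, and fell by 2.61 ± 0.55, and the thiolase Acaa2 fell by 0.74. The hydroxylase Cyp4a14, chosen after its values were seen, stood at 1.87, 2389, 93.9 and 28.7 CPM in the ligated mice against 16.2, 4.27, 51.5, 1.52 and 0.602 CPM in the controls. Mouse 2 stood far above the other 8 mice, and the log2 change of 5.40 ± 1.88 (adjusted p = 0.0663) became 1.16 ± 1.19 without it and no BDL mouse 5.

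Lipogenic genes had a median of -1.31 with 2 of 18 called, Mlxipl, at -1.51 ± 0.30, and the triglyceride synthase Dgat2, at -1.04 ± 0.14. That share was near the 8.44% of all genes that fell. Cholesterol synthesis and uptake genes had 0 of 21 called and a median of -0.15. Of 20 genes of the urea cycle, amino acid breakdown and gluconeogenesis 6 fell and 1 rose. The glucose-6-phosphatase G6pc fell by 2.44 ± 0.60 and the ornithine transcarbamylase Otc by 1.41 ± 0.43, while the serine dehydratase-like gene Sdsl rose by 1.201 ± 0.37. Plasma proteins and apolipoproteins had 5 of 22 genes fall and 0 rise, with Ttr at -1.67 ± 0.30, Apoa2 at -1.51 ± 0.27 and Alb, which was not called, at -0.82 ± 0.40 (adjusted p = 0.168).

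**Figure D3:**
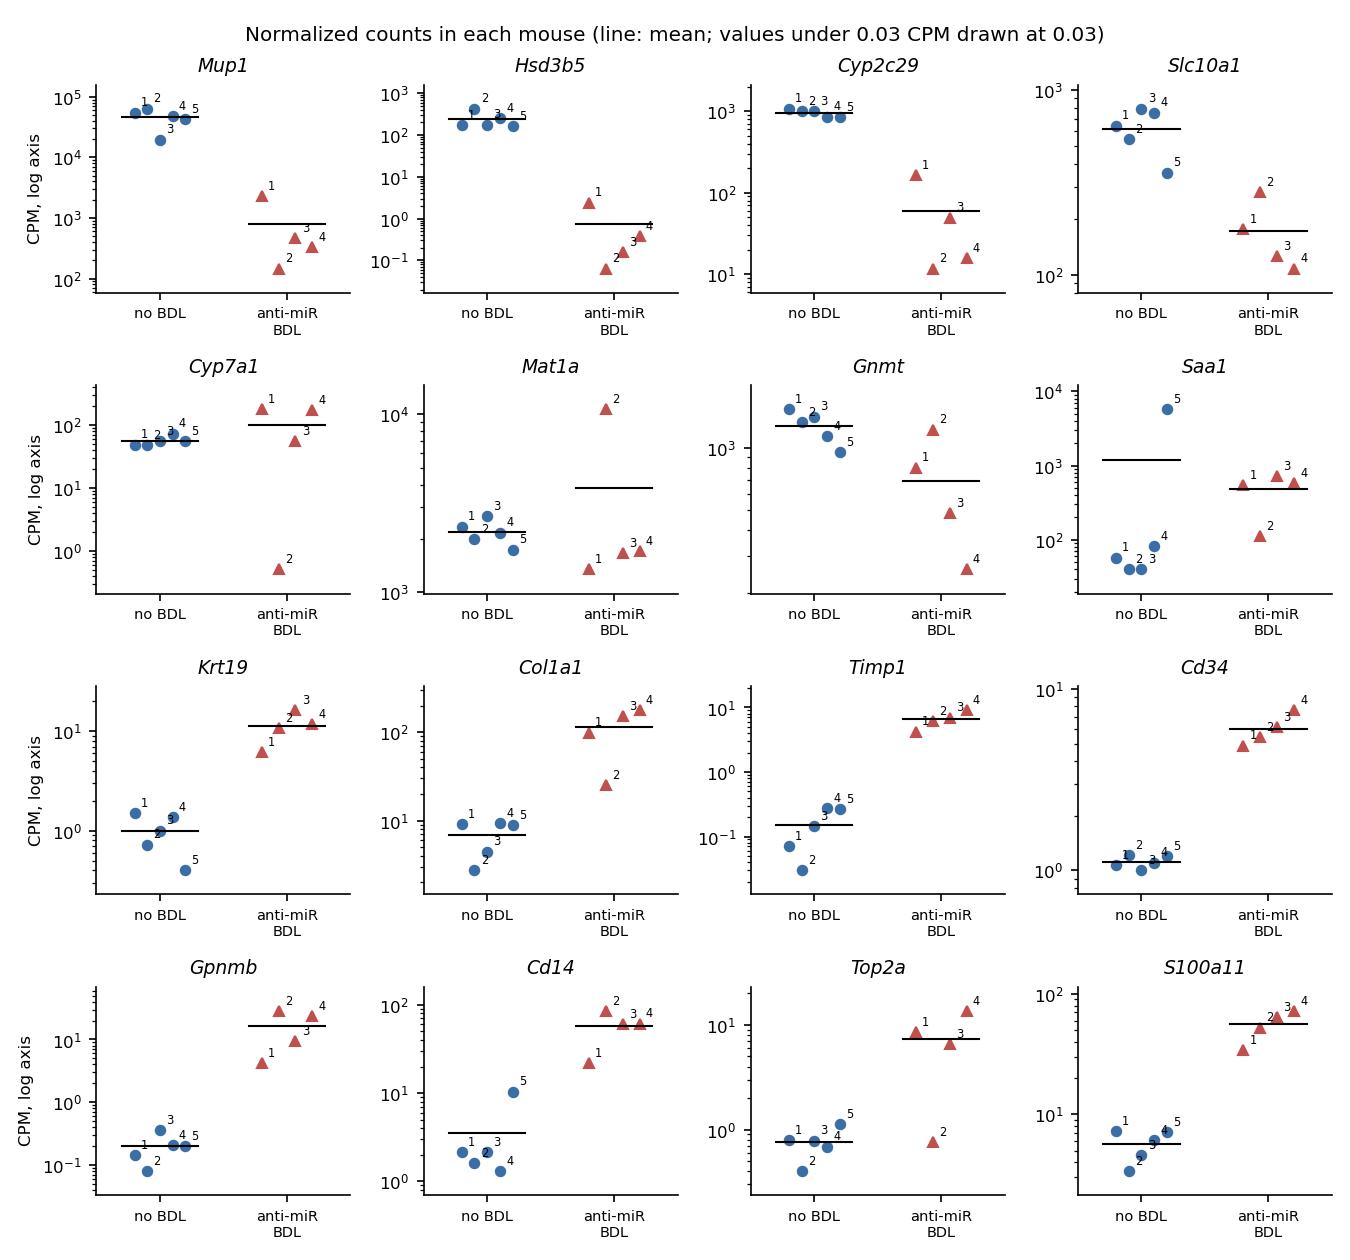
Normalized counts (CPM) of 16 genes in each mouse on log axes, circles for the 5 no BDL mice, triangles for the 4 anti-miR-873-5p BDL mice, numbers for the mouse and lines for group means. Mup1, Hsd3b5 and Cyp2c29 are lower and Krt19, Timp1, Cd34 and S100a11 higher in every ligated mouse, while mouse 2 stands apart for Mat1a, Cyp7a1 and Top2a and no BDL mouse 5 for Saa1.

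Biliary genes rose together. Of 18 tested cholangiocyte and ductular reaction genes 15 rose and 0 fell, with a median of 2.60. Krt19, a keratin of bile duct cells, had 1.504, 0.726, 1.002, 1.38 and 0.401 CPM without BDL and 6.16, 10.8, 16.3 and 11.8 CPM with BDL and anti-miR-873-5p, with no overlap, and rose by 3.48 ± 0.38 (adjusted p = 0.000859). Krt7 rose by 3.66 ± 0.43, the adhesion molecule Epcam by 2.22 ± 0.51, the duct transcription factor Sox9 (chosen after its values were seen) by 1.59 ± 0.24 and osteopontin, Spp1, by 3.75 ± 0.57. The largest rise of the list was that of the tight junction claudin Cldn4, from 0.358, 0.0806, 0.0716, 0.138 and 0.334 CPM to 1.98, 3.98, 10.8 and 5.11 CPM (4.73 ± 0.60). In bulk liver, more cells of a type and more RNA per cell cannot be told apart, here and for the other cell types.

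Of 21 tight junction and gap junction genes 10 rose and 1 fell, the hepatocyte connexin Gjb1, by 0.71 ± 0.18 (chosen after its values were seen). Oncofetal genes, which fetal liver expresses and adult liver shuts off, rose in 6 of 8. Ly6d, a Ly6 surface protein, had 1.29, 0.242, 0.573, 1.10 and 1.204 CPM without BDL and 51.9, 53.8, 57.5 and 91.8 CPM with BDL and anti-miR-873-5p, and its rise of 6.14 ± 0.35 (adjusted p = 9.29e-05) was seen at a like level in mice 1 to 3 and a higher one in mouse 4. The glypican Gpc3 rose by 5.33 ± 0.73 and the imprinted RNA H19 by 5.31 ± 1.02, both from 9 or fewer reads in every control. Afp, alpha-fetoprotein, had a log2 change of 0.98 ± 0.32 (adjusted p = 0.0512).

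Matrix genes rose broadly. Of 35 collagens and matrix genes 27 rose, with a list median of 1.83, and of 26 proteases, inhibitors and TGF-beta genes 19 rose and 0 fell, with a median of 1.85. Col1a1, the main fibrillar collagen chain of scar, had 9.10, 2.74, 4.44, 9.39 and 8.96 CPM without BDL and 99.0, 25.1, 152 and 179 CPM with BDL and anti-miR-873-5p. Mouse 2 was the lowest of the ligated mice and still above all controls, and the rise was 4.03 ± 0.56 (adjusted p = 0.00206). Col1a2 rose by 3.36 ± 0.41 and Col3a1 by 2.98 ± 0.58. The cross-linking enzyme Lox was at 3 or fewer reads in every control and at least 21.5-fold higher in the ligated mice. The collagen chain Col5a3 was the only called member of the list that fell (-1.64 ± 0.37), named after its values were seen.

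Timp1, which inhibits matrix proteases, had 0.0716, 0, 0.143, 0.276 and 0.268 CPM without BDL and 4.23, 6.18, 6.98 and 9.12 CPM with BDL and anti-miR-873-5p, and was 5.34 ± 0.45 higher. Mmp7, a protease of biliary epithelium, went from 0.215, 0, 0.286, 0.276 and 0.401 CPM to 1.02, 27.01, 17.1 and 12.4 CPM (5.85 ± 0.88), with mouse 1 far below the other ligated mice. All controls of Timp1 and Mmp7 were under the filter on low counts, so their direction was fixed. The plasminogen activator Plat rose by 4.56 ± 0.48. Tgfb1, the main fibrogenic cytokine, had a log2 change of 0.91 ± 0.37 (adjusted p = 0.107), and 1.38 ± 0.24 (adjusted p = 0.0037) without mouse 2 and no BDL mouse 5.

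Markers of the matrix-producing cells were less uniform. Of 17 stellate cell and myofibroblast genes 5 rose and 1 fell. The PDGF receptors Pdgfrb and Pdgfra rose by 1.64 ± 0.28 and 1.94 ± 0.28, vimentin (Vim) by 1.98 ± 0.24, Cygb by 1.33 ± 0.25 and Hand2 by 0.67 ± 0.20, and the matrix protein Ecm1 fell by 0.89 ± 0.17. Acta2, smooth muscle actin of myofibroblasts, had 6.95, 2.66, 2.86, 1.86 and 2.94 CPM without BDL and 6.86, 3.79, 8.95 and 12.3 CPM with BDL and anti-miR-873-5p, overlapping ranges with a log2 change of 1.21 ± 0.41 (adjusted p = 0.0621). Des, desmin, had a log2 change of 0.77 ± 0.29 (adjusted p = 0.0797).

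Several genes of the mesothelium, the cell layer that covers the liver, were almost without reads in the controls. Of 8 tested mesothelial genes 7 rose, with a median of 5.30, or 3.27 where genes at 3 or fewer reads in every control are taken at their bound. Such genes passed the filter on low counts through the ligated mice alone and could only come out higher. The 7 of 8 is therefore a description. Msln, mesothelin, was counted with 1 read in 1 control and 0 in the other 4, and had 10.8, 22.4, 3.70 and 14.95 CPM with BDL and anti-miR-873-5p, at least 60.02-fold higher. The uroplakins Upk3b and Upk1b were at least 28.1-fold and 10.4-fold higher, and Lrrn4 at least 9.01-fold higher, each from at most 1 read in a control. Mouse 3 had the least Msln, Upk3b and Upk1b of the ligated mice. Other genes among the 10 largest fitted rises, a ranking that depends on near-zero controls, were Sprr1a, a cornified envelope protein, with 0 reads in every control and 6.75, 4.80, 3.75 and 1.01 CPM in the ligated mice (at least 18.9-fold higher), the IGF-binding protein Igfbp6 (at least 21.6-fold), the fibrocystin-like gene Pkhd1l1 (at least 6.70-fold), the prohormone-processing enzyme Cpe (7.20 ± 1.04) and Sult1e1, the estrogen sulfotransferase. Sult1e1 had 0.643, 58.8, 1.09 and 0.929 CPM in the ligated mice, so its log2 change of 6.19 ± 1.65 rested on mouse 2, and leaving out a mouse gave 2.09 to 7.05.

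Endothelial genes did not move as a block, with 1 of 21 higher and 3 lower. Cd34, a surface marker of capillary endothelium and progenitor cells, had 1.07, 1.21, 1.002, 1.10 and 1.204 CPM without BDL and 4.87, 5.43, 6.14 and 7.65 CPM with BDL and anti-miR-873-5p, and rose by 2.42 ± 0.18 (adjusted p = 0.000252). The VEGF receptor Kdr fell by 1.27 ± 0.38, the sinusoidal nuclease Dnase1l3 by 1.51 ± 0.45 and Gpihbp1 by 0.60 ± 0.19. Each of these 3 calls was lost in most fits that left out a mouse.

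Macrophages in a ligated liver are resident Kupffer cells and cells recruited from blood monocytes, and the difference between their lists was not tested. Of 23 recruited macrophage and monocyte genes 19 rose and 1 fell, the coagulation factor F10 by 0.59 ± 0.19 (chosen after its values were seen), with a list median of 2.15. Gpnmb, a glycoprotein of lipid-laden macrophages, had 0.143, 0.0806, 0.358, 0.207 and 0.201 CPM without BDL and 4.23, 28.7, 9.42 and 23.2 CPM with BDL and anti-miR-873-5p, and was 6.30 ± 0.66 higher. All controls of Gpnmb were under the filter on low counts, so its direction was fixed. The lipid receptor Trem2 rose by 4.39 ± 0.57, the chemokine receptor Cx3cr1 by 4.36 ± 0.67 and the monocyte receptor Ccr2 by 3.07 ± 0.69, with mouse 2 at 1.14 CPM of Ccr2 and within the range of the controls.

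Of 15 Kupffer cell genes 1 rose, the scavenger receptor Marco by 2.71 ± 0.87 (adjusted p = 0.0499), and it overlapped with no BDL mouse 5 at 41.1 CPM. Clec4f, which marks resident Kupffer cells, had a log2 change of 0.71 ± 0.51 (adjusted p = 0.343). Adgre1, the F4/80 antigen, had 4.37, 6.29, 9.02, 5.04 and 23.7 CPM without BDL and 16.98, 8.90, 37.1 and 51.1 CPM with BDL and anti-miR-873-5p, where mouse 5 was the highest control and mouse 2 the lowest ligated mouse. Without these 2 mice 9 of 15 Kupffer cell genes rose and Adgre1 was at 2.49 ± 0.37 (adjusted p = 0.0019).

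Of 20 neutrophil genes 7 passed the filter and 4 rose. S100a8 and S100a9, subunits of calprotectin, rose by 3.19 ± 0.87 and 3.28 ± 0.99, the receptor Csf3r by 1.61 ± 0.44 and the protease Mmp9 by 2.46 ± 0.65. Of the 9 fits that left out a mouse, S100a8 was called in 4 and each of the other 3 genes in 3. In S100a8 ligated mouse 4 stood above the rest, with 4.12, 2.65, 2.65 and 15.2 CPM in mice 1 to 4. Lymphocyte genes were sparse, with 8 of 26 T cell and natural killer cell genes tested and 0 called, and of 6 B and plasma cell genes 1 fell and 1 rose, Sdc1, which hepatocytes also express, by 0.89 ± 0.18. Genes of MHC class II and dendritic cells had a median of 1.13 with 0 of 10 called, and 8 of 11 rose without mouse 2 and no BDL mouse 5.

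Of 21 tested chemokines and cytokines 8 rose and 1 fell, Il18 by 0.72 ± 0.15 (chosen after its values were seen). Ccl2, which draws monocytes, had 0.501, 0.484, 0.573, 0.207 and 1.54 CPM without BDL and 4.29, 5.55, 23.5 and 14.3 CPM with BDL and anti-miR-873-5p, and rose by 4.14 ± 0.63 (adjusted p = 0.00296). The neutrophil chemokine Cxcl1 rose by 2.41 ± 0.39. The cytokines Tnf and Il6 and the nitric oxide synthase Nos2 did not pass the filter on low counts, with at most 1.67, 3.90 and 0.156 CPM in any ligated mouse. Tnf passed it with mouse 2 and no BDL mouse 5 left out, a choice made after seeing the data. It was then 3.32 ± 0.48 higher on the log2 scale. Its passing rested on the ligated mice, so this value is a description and no test.

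The acute phase genes, which hepatocytes switch on in inflammation, were high in no BDL mouse 5. Of 30 genes 5 rose with all mice, near the 13.1% of all genes that rose, and 1 fell. Without mouse 2 and no BDL mouse 5, 23 rose and 1 fell. Saa1, serum amyloid A, had 57.5, 40.3, 39.8, 82.6 and 5739 CPM without BDL and 550.3, 113, 725 and 574 CPM with BDL and anti-miR-873-5p. No BDL mouse 5 was above every ligated mouse and the other 4 controls were below all of them, so the log2 change was -1.28 ± 1.53 (adjusted p = 0.584) with it and 3.47 ± 0.28 (adjusted p = 0.00043) without it and mouse 2. Lcn2, the iron-scavenging lipocalin, chosen after its values were seen, was at 4.08, 2.42, 4.73, 7.18 and 571 CPM in the controls and at 341, 1801, 1466 and 1635 CPM in the ligated mice.

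The called members of that list were Cd14, the endotoxin co-receptor, at 4.01 ± 0.63, the interleukin-1 antagonist Il1rn at 2.40 ± 0.69, the cytokine signal inhibitor Socs3 at 1.91 ± 0.42, the orosomucoid Orm3 at 1.68 ± 0.53 and ceruloplasmin (Cp) at 1.36 ± 0.29, with the serpin Serpina3m at -1.36 ± 0.31. Of 30 interferon response genes 4 rose, near the 13.1% of all genes that rose, and 1 fell, and 19 rose without those 2 mice. The antiviral genes Oasl2, Oas2, Ifit2 and Mx1 rose by 1.95, 1.62, 1.52 and 1.41, the GTPase Iigp1 fell by 0.73, and Isg15 had a log2 change of 0.52 ± 0.44 (adjusted p = 0.434). With 1 mouse left out in turn, Oasl2 was called in all 9 fits, Ifit2 in 5, Oas2 and Mx1 in 3 each and Iigp1 in 2.

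**Figure D4:**
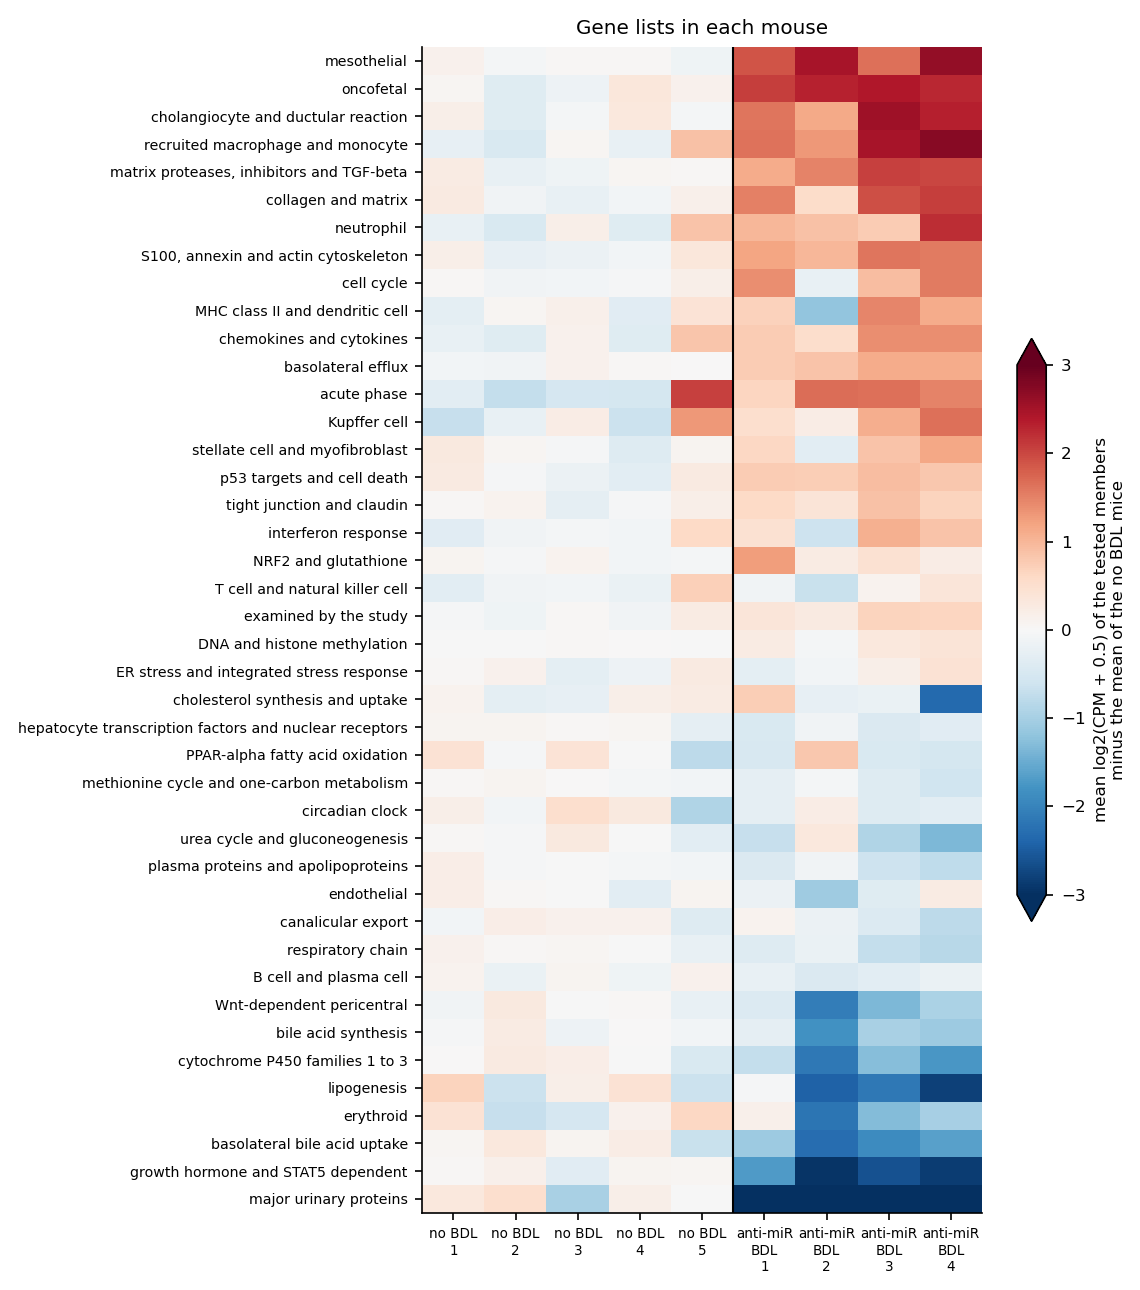
Mean log2(CPM + 0.5) of the tested members of each gene list in each mouse, minus the mean of the 5 no BDL mice, with red for higher and blue for lower and the colour scale ending at -3 and 3. No BDL mouse 5 shows an acute phase score of 2.05, above all ligated mice, and anti-miR-873-5p BDL mouse 2 lies below the other ligated mice for cell cycle (-0.21), interferon (-0.62) and MHC class II (-1.17) genes.

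The mean of the cell cycle list was above all controls in ligated mice 1, 3 and 4 and below them in mouse 2. Of 32 tested genes 21 rose and 1 fell, the thymidylate synthase Tyms by 0.37 ± 0.10 (chosen after its values were seen). Without mouse 2 and no BDL mouse 5, 40 genes passed the filter and 33 of them rose, so the tested list itself grew in that fit. Top2a, the topoisomerase of dividing cells, had 0.788, 0.403, 0.788, 0.69 and 1.14 CPM without BDL and 8.52, 0.757, 6.51 and 13.6 CPM with BDL and anti-miR-873-5p, and rose by 3.26 ± 0.64 (adjusted p = 0.00833). Mki67 rose by 2.86 ± 0.56, the transcription factor Foxm1 by 3.18 ± 0.56 and the kinase Plk1 by 2.80 ± 0.47. In Top2a, Mki67 and Uhrf1 the 3 other ligated mice were above all controls and mouse 2 was within their range.

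Promoters of cell cycle genes often hold the cell cycle homology region, TTTGAA, through which the DREAM complex represses them in resting cells. In RefSeq's promoter windows (250 bases before to 50 after the start, both strands, GRCm38.p6) it was present in 15 of 26 genes of the cell cycle list (57.7%) against 14.8% of the 10437 tested genes with a promoter. The first match in each of 5 genes that rose is shown with 8 bases on either side and the motif in capitals, at chr11:99024355-99024376 on the minus strand for Top2a, chr7:135716482-135716503 on the minus strand for Mki67, chr7:122159457-122159478 on the plus strand for Plk1, chr4:118437348-118437369 on the minus strand for Cdc20 and chr10:69352970-69352991 on the minus strand for Cdk1. A match is a description of the sequence and not a measured site.
Top2a: tggtccatTTTGAAgattctcc
Mki67: cgccagaaTTTGAAccgccgtt
Plk1: gcgccgcgTTTGAAttcgggga
Cdc20: agttgggtTTTGAAggagccaa
Cdk1: ttggctccTTTGAAcgtctacg

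Of these 5 genes, Cdc20 and Cdk1 (the latter chosen for its sequence after its values were seen) rose by 2.48 ± 0.62 and 2.31 ± 0.48. The same 6 letters were present in 15.6% of promoters of all genes that rose and 16.7% of those that fell. The antioxidant response element, TGACNNNGC, was in 9 of 26 NRF2 and glutathione promoters (34.6%, against 16.7% of all), the interferon-stimulated response element in 17 of 23 interferon promoters (73.9%, against 3.85%), and the AP-1 site, TGANTCA, in 3 of 17 protease and TGF-beta promoters (17.6%, against 6.60%). The STAT5 site, TTCNNNGAA, was in 2 of 11 growth hormone promoters (18.2%, against 8.57%) and in 0 of 11 MUP promoters, the TEAD site, GGAATG, in 5 of 22 promoters of the cytoskeletal list (22.7%, against 14.7%), and the HNF1 site in 0 of 17 plasma protein promoters and 1 of all 10437. The 6 letters of the cell cycle region were also in 11 of 25 P450 promoters (44.0%), genes of which none rose. Other lists could exceed those for which a motif is known. The TEAD letters were in 10 of 11 MUP promoters (90.9%), which resemble each other, and in 5 of 11 growth hormone promoters (45.5%), the AP-1 letters in 9 of 24 acute phase promoters (37.5%), and the STAT5 letters in 8 of 24 acute phase (33.3%) and 8 of 23 interferon promoters (34.8%).

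The p53 factor switches on genes that stop division and start cell death. Of 22 p53 targets and cell death genes 11 rose and 1 fell, the caspase Casp8 by 0.42 ± 0.12 (chosen after its values were seen). Phlda3, an AKT repressor and p53 target, had 0.716, 0.564, 0.859, 0.759 and 1.14 CPM without BDL and 9.70, 5.36, 9.84 and 10.01 CPM with BDL and anti-miR-873-5p, and rose by 3.42 ± 0.26 (adjusted p = 0.000252). Cdkn1a, the p21 cell cycle inhibitor, had 9.31, 3.71, 0.859, 1.45 and 41.1 CPM against 27.7, 143, 48.7 and 33.3 CPM, where no BDL mouse 5 lay within the range of the ligated mice. Its log2 change was 2.47 ± 0.98 (adjusted p = 0.0975), and 3.24 without that mouse and ligated mouse 2.

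Of 31 NRF2 and glutathione genes 10 rose and 4 fell. Gpx2, an epithelial glutathione peroxidase, was at 3 or fewer reads in every control, had 6.16, 0.947, 5.67 and 8.24 CPM in the ligated mice and was at least 24.3-fold higher. The reductase Cbr3 rose by 3.73 ± 0.58, the quinone reductase Nqo1 by 1.79 ± 0.30 and the heme oxygenase Hmox1 by 1.95 ± 0.41. Gsta1, of which 90.5% of windows occur in another gene, rose by 3.61 ± 0.60 with mouse 1 highest. The transferases that fell, Gsta3, Gstt1, Mgst1 and Gstm7 (-1.16, -0.96, -0.89 and -0.58), are abundant in normal hepatocytes and were named after their values were seen. Gsta3 was called in 2 of the 9 fits that left out a mouse, and Gstt1, Mgst1 and Gstm7 in 3 each.

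Of 27 S100, annexin and actin cytoskeleton genes 17 rose and 0 fell, with a median of 1.31. S100a11, a calcium-binding protein of injured epithelium, had 7.23, 3.39, 4.58, 6.14 and 7.09 CPM without BDL and 33.9, 52.5, 64.4 and 72.3 CPM with BDL and anti-miR-873-5p, and rose by 3.29 ± 0.27 (adjusted p = 0.000273). S100a6 rose by 3.27 ± 0.33 and the membrane-binding annexin Anxa2 by 3.03 ± 0.32, with every ligated mouse above every control in all 3 genes. ER stress genes had 0 of 21 called and a median of -0.04. Of 19 circadian clock genes 1 fell, the repressor Bhlhe41, by 2.73 ± 0.68, with controls from 1.003 to 13.7 CPM.

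Markers of cells from outside the liver were lower in the ligated mice or did not pass the test. Of 7 tested erythroid genes the heme synthase Alas2 fell by 2.35 ± 0.59, and summed erythroid counts ran from 590.2 to 3394 CPM in the controls and from 133 to 1443 CPM in the ligated mice. Of 3 tested pancreatic acinar genes Cela1 and Amy2a5 fell by 1.95 ± 0.34 and 1.27 ± 0.36, from a sum of at most 41.1 CPM. Of 3 tested adipocyte and intestinal genes 0 were called, with sums of 773 to 3312 CPM in the controls and 59.0 to 510.1 CPM in the ligated mice. The part of blood or other tissue in the results above was not tested.

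**Figure D5:**
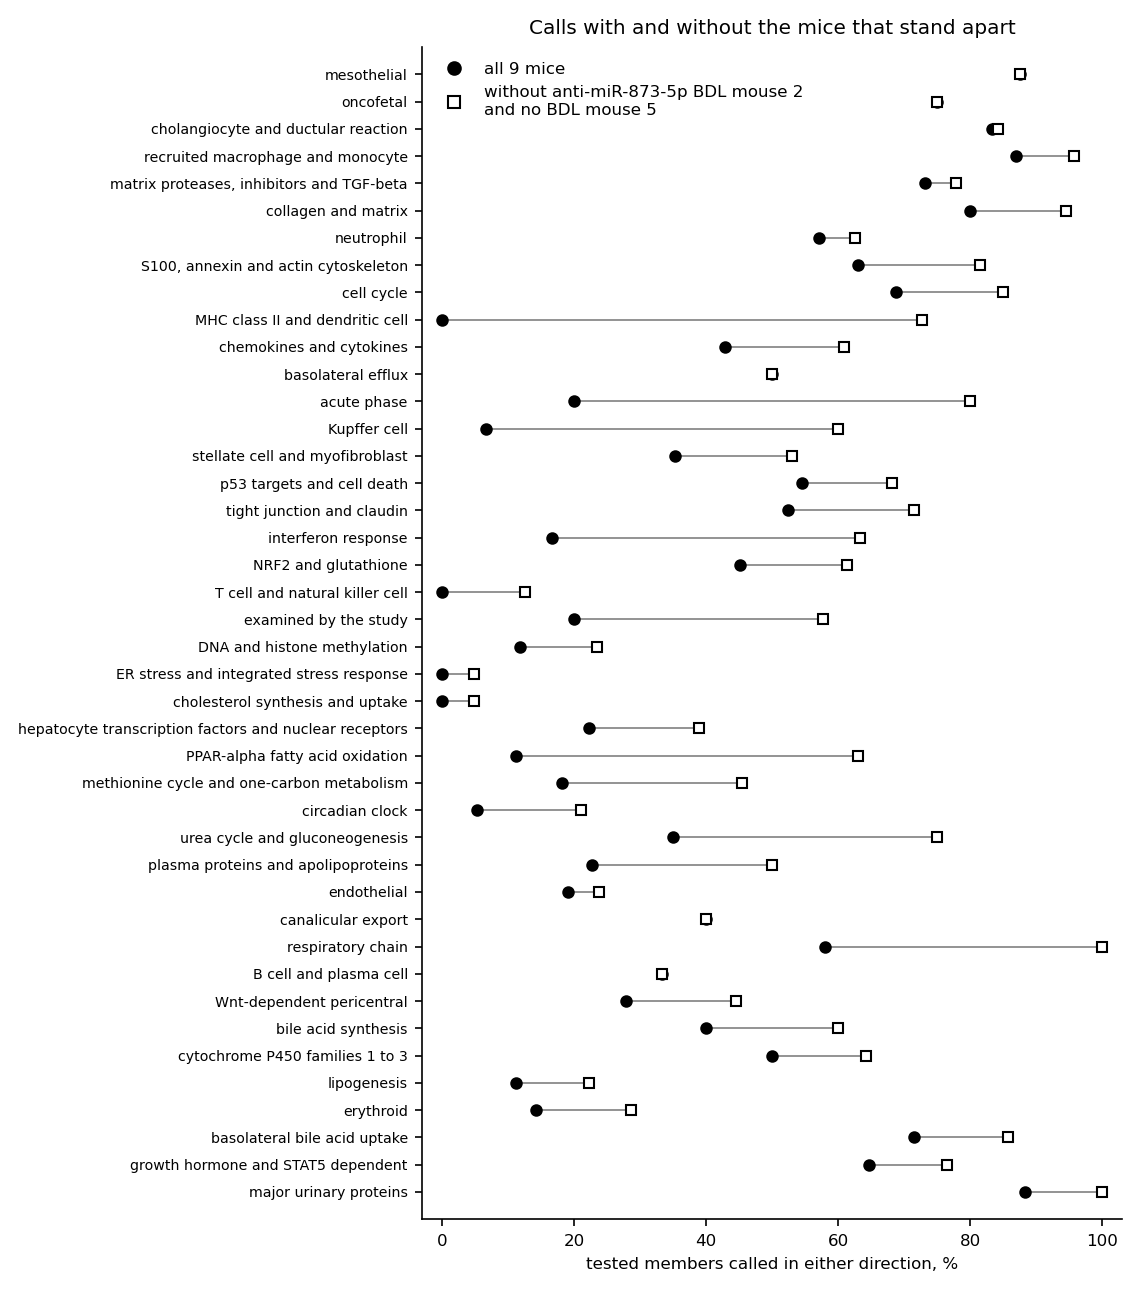
Percent of the tested members of each gene list that were called in either direction, with all 9 mice (filled circles) and without anti-miR-873-5p BDL mouse 2 and no BDL mouse 5 (open squares). Mesothelial, oncofetal and cholangiocyte lists barely move, while acute phase goes from 6 to 24 of 30 members, interferon from 5 to 19 of 30 and PPAR-alpha from 3 to 17 of 27. Over all genes, which are not drawn, calls go from 2823 of 13130 to 4819 of 13446.

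A list of 28 genes that the study examined in ligated livers, or for Rassf1 and Rassf4 in another mouse model of cholestasis, had 25 members that passed the filter. With all mice 5 rose (Krt19, Epcam, Ccl2, Mmp9 and Rassf1, the last by 0.70 ± 0.20) and 0 fell. Mmp9 was called in 3 and Rassf1 in 2 of the 9 fits that left out a mouse. Without mouse 2 and no BDL mouse 5, 12 of 26 rose and 3 fell. The SUMO ligases Pias1 and Pias3, the tumour suppressor Rassf4 and the histone methyltransferase Ash1l had log2 changes of -0.05, 0.07, 0.79 and -0.03 (adjusted p = 0.796, 0.757, 0.138 and 0.849). The study chose these genes on cholestatic livers, so they are no independent sample of genes.

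The 4 miR-Ctrl BDL mice were set against the same 5 controls in their own table, and both comparisons therefore share their no BDL mice. There, 2491 (19.1%) of 13072 genes rose and 2175 (16.6%) fell. Side by side, the median of the MUP list was -7.62 with miR-Ctrl and -5.83 with anti-miR-873-5p, that of the cholangiocyte list 2.30 and 2.60, of collagen and matrix 1.47 and 1.83, of acute phase 1.45 and 0.80, of interferon response 1.19 and 0.52, and of the cell cycle 1.94 and 1.29. Each median covers the members that passed the filter in its own table, and these could differ. For the cell cycle they were 37 genes with miR-Ctrl and 32 with anti-miR-873-5p. Gnmt had -1.49 with miR-Ctrl and -0.88 with anti-miR-873-5p, Krt19 3.19 and 3.48 and Col1a1 3.59 and 4.03.

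Whether the ligated groups differed was tested in 1 fit of all 13 mice, over the genes whose counts are the same in all tables. Of 12984 genes 0 were called (percent called 0), 654 had an unadjusted p under 0.05, and DESeq2's Wald test called 13. Gnmt was 0.62 ± 0.37 higher on the log2 scale with anti-miR-873-5p than with miR-Ctrl (unadjusted p = 0.121, adjusted p = 0.912), Krt19 0.29 ± 0.31 (adjusted p = 0.92), Col1a1 0.44 ± 0.50 (adjusted p = 0.92) and Cyp8b1 4.79 ± 1.07 (unadjusted p = 0.000643, adjusted p = 0.912). The differences from no BDL described above were therefore not shown to be particular to anti-miR-873-5p.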

How the data were processed

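Livers of 13 mice were profiled by RNA-seq, 5 no BDL, 4 miR-Ctrl BDL and 4 anti-miR-873-5p BDL, grouped by their labels. Per the study's methods, libraries were made from 700 ng of total RNA with TruSeq RNA v2, sequenced as single 50-nt reads, aligned to mm10 with TopHat and compared with DESeq2. The submitters' processing notes also name CASAVA 1.8.2, FastQC and Trim Galore. The counting program, annotation and strand setting are not given in the sources used here, so overlapping, antisense and near-identical genes are uncertain. The authors deposited raw counts per Entrez gene, with their own fold changes and p-values, which were not used. Of 23725 genes, 23666 had a symbol in RefSeq, and the 59 without one took 0.0791% to 7.90% of a mouse's reads.

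Counts were filtered (filterByExpr), scaled by TMM and tested with edgeR 4.0.16 (quasi-likelihood, Benjamini-Hochberg, R 4.3.3), comparing anti-miR-873-5p BDL with no BDL. On data simulated for 4 against 5 mice, with 200 of 13130 genes changed by 2 on the log2 scale, edgeR recovered 88.5%, and 6.35% of its calls were unchanged genes. DESeq2 1.42.0 recovered 95%, with 18.1%. Totals were 12857186 to 19385430 counts. Precision rests on the few mice, and separate mice were taken as replicates. A group with at most 3 reads in every mouse was taken at 3 reads for a bound of the fold, which covers counting error only. A gene under the filter in every control passed it through the ligated mice alone, which fixed its direction. All genes in the difference between ligated groups had equal counts in the tables (22246 of 23725).

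The 44 lists (917 of 925 entries matched) and the members were chosen with earlier results of these data known. Named were a list of genes the study examined, the first 2 and up to 6 most changed called genes of each list, and the 10 largest rises and falls with groups that did not overlap. Others are marked as chosen after their values were seen. A few genes that this rule names are not reported here. Alternatives were other scalings, filters, DESeq2, a fit of all 3 groups, a replicate block and leaving out mice. Of the lists' promoters, 7 motifs were searched on both strands.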

Additional observations from a re-analysis of the deposited data

Results flagged for a closer look

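Dixon's test at the 95% level was run on the CPM of genes of the examined set, in the groups of 4 and 5 mice, 377 groups in all. In 50 of them a single mouse lay farther from the rest than the critical value (0.829 for 4 mice, 0.71 for 5). Chance gives about 1 in 20 groups, and genes of a mouse are not independent. No explanation was tested.

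Anti-miR-873-5p BDL mouse 2 was the highest of its group for Mat1a at 10594 CPM (others 1343 to 1703), Ahcy at 3026 CPM (others 586 to 663), Cyp4a14 at 2389 CPM (others 1.87 to 93.9), Apoa4 at 16038 CPM (others 254 to 734) and Serpina3m at 1219.7 CPM (others 485 to 587). It was likewise the highest of its group for Sult1e1 at 58.8 CPM (others 0.643 to 1.09). The same mouse was the lowest of its group for Dnmt1 at 7.07 CPM (others 15.96 to 17.7), Phlda3 at 5.36 CPM (others 9.70 to 10.01), Pias3 at 6.56 CPM (others 8.20 to 8.52) and Foxa2 at 13.3 CPM (others 20.6 to 21.4).

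Anti-miR-873-5p BDL mouse 1 was the highest of its group for Shmt1 at 107 CPM (others 49.8 to 56.1), Mup1 at 2283 CPM (others 145 to 464), Mup7 at 704 CPM (others 51.4 to 104), Hsd3b5 at 2.41 CPM (others 0.0631 to 0.38) and Elovl3 at 24.1 CPM (others 2.27 to 2.79). This mouse was further the highest of its group for Cyp4a12a at 79.1 CPM (others 6.29 to 18.6), Fabp1 at 1449 CPM (others 302 to 348), Gsta1 at 178 CPM (others 23.98 to 45.4), Cela1 at 6.27 CPM (others 3.98 to 4.32) and Mgst1 at 2267 CPM (others 1160.3 to 1216). It was likewise the highest of its group for Abcg2 at 64.5 CPM (others 28.97 to 32.6) and Sult2a8 at 44.2 CPM (others 1.82 to 2.27). The same mouse was the lowest of its group for Il1rn at 8.57 CPM (others 21.96 to 23.1).

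Anti-miR-873-5p BDL mouse 4 was the highest of its group for Mmp9 at 4.56 CPM (others 1.45 to 1.77), S100a8 at 15.2 CPM (others 2.65 to 4.12) and Ly6d at 91.8 CPM (others 51.9 to 57.5).

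No BDL mouse 5 was the highest of its group for Adgre1 at 23.7 CPM (others 4.37 to 9.02), Trem2 at 1.34 CPM (others 0.143 to 0.484), Chil3 at 1.94 CPM (others 0 to 0.207), Ccl2 at 1.54 CPM (others 0.207 to 0.573) and S100a8 at 2.47 CPM (others 0.143 to 0.276). This mouse was further the highest of its group for S100a9 at 3.75 CPM (others 0 to 0.414), Saa1 at 5739 CPM (others 39.8 to 82.6), Lcn2 at 571 CPM (others 2.42 to 7.18), Cd14 at 10.4 CPM (others 1.31 to 2.15) and Il1rn at 11.5 CPM (others 0.564 to 2.72). It was likewise the highest of its group for Orm3 at 117 CPM (others 23.1 to 26.9), Cdkn1a at 41.1 CPM (others 0.859 to 9.31) and Hmox1 at 27.96 CPM (others 7.87 to 12.6). The same mouse was the lowest of its group for Sdha at 334 CPM (others 435 to 475) and Fxyd6 at 0 CPM (others 0.215 to 0.276).

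No BDL mouse 1 was the highest of its group for Cyp8b1 at 354 CPM (others 221 to 236), Onecut1 at 8.31 CPM (others 1.93 to 3.52), Ttr at 6477 CPM (others 4758 to 5247), Acta2 at 6.95 CPM (others 1.86 to 2.94) and Gpc3 at 0.287 CPM (others 0 to 0.0716). This mouse was further the highest of its group for Sult1e1 at 0.573 CPM (others 0.069 to 0.161).

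No BDL mouse 4 was the highest of its group for Cyp4a12a at 512 CPM (others 287 to 352), Cyp7a1 at 73.4 CPM (others 48.4 to 55.3) and H19 at 0.621 CPM (others 0 to 0.134).

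Apoa4, Lcn2, Cyp4a14, Mgst1, Sult2a8 and Fxyd6 were chosen after their values were seen.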

How the results depend on the processing

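Against 2823 calls (1715 higher, 1108 lower), library size alone gave 10194 (10063 and 131), library sizes without the 20 most abundant genes 4745 (4410 and 335), and leaving out both anti-miR-873-5p BDL mouse 2 and no BDL mouse 5, added after seeing the data, 4819 (2748 and 2071). Leaving out 1 mouse gave 1261 to 4317 calls, 904 to 2500 higher and 357 to 1817 lower, the lowest of each without anti-miR-873-5p BDL mouse 3 and the highest without mouse 2. DESeq2's Wald test gave 3630, and the other scalings and filters and the fit of all 3 groups gave 2734 to 3156. Same-numbered mice did not deviate together (correlations of 0.07, -0.05, -0.05 and -0.20), so the numbers do not pair mice, and a replicate block gave 2195 calls (1449 higher, 746 lower), with no sample correlating best with its own number. Between the ligated groups edgeR called 0 genes in every setting run, 0 to 0 when a mouse was left out, and DESeq2 called 13.

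Of 3630 values of 192 genes under the alternatives, 3103 kept direction and side of the threshold, 428 lost a call, 85 gained one and 14 changed sign, all in genes not called with all mice, where values under library size alone and without the 20 most abundant genes are taken relative to the median of all genes. Without that correction library size alone turned the sign of 20 of the 155 called genes. Mat1a went to -0.56 without the 2 mice and ranged from -0.49 to 1.09 without 1 mouse. Saa1 went to 3.47 without the 2 mice and 2.94 with the block and ranged from -1.63 to 3.16, Dnmt3b went to 0.15 without the 2 mice, and Dnmt3a went to -0.013 with the block and ranged from -0.056 to 0.15. With upper-quartile scaling Pias1 went to 0.0086 and Ash1l to 0.024, and without 1 mouse they ranged from -0.12 to 0.00010 and from -0.068 to 0.017. The causes were not tested. With at most 5 mice a group, a missed call does not show equal levels.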
